A study of Mus musculus with 12 samples.

Results

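Transcript levels were described for 9 genes of TGF-beta and activin signalling: the ligand genes Tgfb1, Tgfb2, Tgfb3, Inhba and Mstn, the latency gene Ltbp1, the antagonist gene Fst, and the feedback genes Skil and Smad7. They were taken by gene symbol from a table of 23586 genes in 12 libraries of mouse muscle stem cells in culture, the cells from which adult skeletal muscle regenerates. All 9 passed the filter on low values (10 or more normalized counts in 3 or more libraries), as did 14580 genes in all. A normalized count is the number of reads of a gene divided by a size factor of its library.

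Every cell carried the Pax3nLacZ-IRES-GFP genotype, an allele from which GFP reports the locus of Pax3, whose paired-box protein marks a subset of muscle progenitors. Cells sorted as GFP-positive (PAX3+) were given 2 µg of either pCR3-Six2, which carries mouse cDNA of the homeobox factor SIX2, or empty pCR3. Cells sorted as GFP-negative (PAX3-) received the same plasmids, which gave 4 groups of 3 libraries, each made from 50000 or more cells grown in DMEM with 20% serum and 4 ng/mL basic FGF. The study's question was what added SIX2 changes in either population. Plasmids were delivered with a lipid reagent; the animals' age and the muscle of origin are not given in the sources used here. Whether the 3 libraries of each group stem from different animals or dishes is not in the labels, and the p-values therefore cover only the spread between libraries, which may be technical.

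TGF-beta ligands are secreted as latent complexes, bound through the latent TGF-beta binding proteins to the extracellular matrix, and once released they signal through type I and type II receptor kinases to SMAD2 and SMAD3. Activin and myostatin use other type II receptors but the same SMADs, and follistatin binds and neutralises both. SMAD7 and SnoN, the product of Skil, dampen the pathway, and transcription of both genes is induced by it; in muscle, myostatin restrains growth and TGF-beta ligands hold back differentiation.

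Promoters are shown for 4 of the genes, Mstn and Inhba, which were higher under the SIX2 label, and Tgfb1 and Tgfb2, which were lower under it in at least 1 population. The 250 bases before the start of each gene are from RefSeq on GRCm38.p6, 5′ to 3′ on the gene's strand. Promoters of 5 of the 9 genes were read. Ltbp1, also higher under the SIX2 label, is the gene among them whose promoters, 2 in number, are not shown. Capitals mark matches on either strand to CAGAC, the core letters to which SMAD proteins bind. They also mark the E-box CANNTG, at which MyoD-family factors bind, and the core promoter element TATAAA, known as the TATA box. The MEF3 element, known from muscle gene promoters, was searched as TCAGGTT as well. The 4 promoters are at chr1:53061390-53061639 (plus strand, Mstn), chr13:16011601-16011850 (plus strand, Inhba), chr7:25686752-25687001 (plus strand, Tgfb1) and chr1:186705990-186706239 (minus strand, Tgfb2).
Mstn: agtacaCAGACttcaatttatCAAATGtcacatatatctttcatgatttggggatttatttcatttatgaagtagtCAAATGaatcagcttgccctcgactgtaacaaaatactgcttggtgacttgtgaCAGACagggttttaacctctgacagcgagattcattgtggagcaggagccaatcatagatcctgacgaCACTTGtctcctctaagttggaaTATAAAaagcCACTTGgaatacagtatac
Inhba: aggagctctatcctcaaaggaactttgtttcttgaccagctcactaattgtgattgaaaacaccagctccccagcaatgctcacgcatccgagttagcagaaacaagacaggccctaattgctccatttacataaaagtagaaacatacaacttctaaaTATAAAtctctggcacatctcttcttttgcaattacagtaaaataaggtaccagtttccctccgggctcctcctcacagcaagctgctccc
Tgfb1: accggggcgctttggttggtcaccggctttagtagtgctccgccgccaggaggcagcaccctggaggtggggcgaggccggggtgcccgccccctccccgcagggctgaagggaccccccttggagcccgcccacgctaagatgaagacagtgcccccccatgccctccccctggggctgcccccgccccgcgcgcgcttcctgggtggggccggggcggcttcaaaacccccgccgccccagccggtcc
Tgfb2: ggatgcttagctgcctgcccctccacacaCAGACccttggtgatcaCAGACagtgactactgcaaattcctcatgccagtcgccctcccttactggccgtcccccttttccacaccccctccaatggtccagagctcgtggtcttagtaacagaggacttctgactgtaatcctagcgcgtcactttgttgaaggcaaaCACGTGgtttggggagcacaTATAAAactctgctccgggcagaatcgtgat

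Counted from the base before the gene start as -1, the Mstn promoter held CAGAC at -244 and -120, E-boxes at -229, -174, -52 and -19, and TATAAA at -29. The Tgfb2 promoter held CAGAC at -221 and -204, 1 E-box at -51 and TATAAA at -31. Inhba had a single TATAAA at -91, and Tgfb1, with 75.2% G and C, had no match. No match overlapped another, and none of the 4 windows held TCAGGTT. Among 32841 promoters of the same length, CAGAC occurred in 42.2%, CANNTG in 66.2%, TATAAA in 12.4% and TCAGGTT in 3.5%. The matches are a description of these letters and were not tested against binding.

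Depth ranged from 12.6 to 15.5 (reads in units of 1e6) in the GFP-positive SIX2-labelled libraries and from 31.3 to 47.3 in the GFP-positive control-labelled ones; GFP-negative libraries had 34.0 to 40.2 under the SIX2 label and 12.4 to 33.2 under the control label. Six2 itself was near the bottom of the measurable range. It had 28.6, 23.4 and 6.51 normalized counts in the GFP-positive SIX2-labelled libraries, against 5.35, 13.3 and 3.37 in the control-labelled ones, and 22.8, 23.7 and 19.2 (SIX2 label) against 4.28, 15.9 and 24.4 (control label) in the GFP-negative cells. The groups overlapped in both populations, and the log2 changes of 1.26 ± 0.68 (SE, adjusted p = 0.209) and 0.80 ± 0.68 (adjusted p = 0.421) did not pass limma's test. Pax3 did not separate the sorted populations either, with 72.2 ± 19.0 normalized counts in GFP-positive and 71.4 ± 2.79 in GFP-negative control-labelled libraries (SD, n = 3 each), and it was lower under the SIX2 label in both (log2 change -2.82, adjusted p = 2.90e-04, in GFP-positive and -2.06, adjusted p = 0.0022, in GFP-negative cells, limma). The level of neither gene therefore bore out its label, and the groups are called by their labels throughout. The progenitor genes Myod1 and Des and the myocyte genes Myog and Acta1 were abundant in every group, with at least 15620 normalized counts on average. Among the other listed progenitor markers, Itga7 averaged 26442 to 34764 by group, Cdh15 4362 to 5327 and Myf5 1618 to 4042. Vcam1 averaged 330 to 1114, Pax7 98.0 to 170 and Chrdl2 2.96 to 11.1.

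Under the SIX2 label the myostatin and activin ligand genes were higher, their antagonist follistatin was lower, Tgfb2 and Tgfb3 were lower, and the latency gene Ltbp1 was higher. Tgfb1 was lower as well, past the threshold in GFP-negative cells only. Mstn was 2.29-fold higher in GFP-positive and 2.12-fold higher in GFP-negative cells, and Inhba 2.33-fold and 3.24-fold higher. Fst was at 0.430 and 0.446 times its control level, Tgfb2 at 0.560 and 0.693 times. In GFP-positive cells 3 of the 9 genes rose and 4 fell at an adjusted p under 0.05 (limma-trend, Benjamini-Hochberg over all 14580 genes), against 12.1% of all tested genes higher and 11.2% lower, 23.3% in all. In GFP-negative cells 4 rose and 4 fell, against 13.6% and 14.3%, 27.9% in all. In all, 6 genes moved the same way in both populations, Mstn, Inhba and Ltbp1 up and Fst, Tgfb2 and Tgfb3 down, against 7.42% of tested genes higher in both and 6.31% lower in both (13.7%). The median log2 change of the 9 genes was -0.24 in GFP-positive and -0.23 in GFP-negative cells, beside -0.01 and 0.00 over all tested genes. The groups did not overlap for 7 of the 9 genes in GFP-positive cells, against 36.8% of tested genes, and for all 9 in GFP-negative cells, against 46.3%. These counts are descriptive, since the genes were chosen as a pathway with results of these data known.

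**Figure D1:**
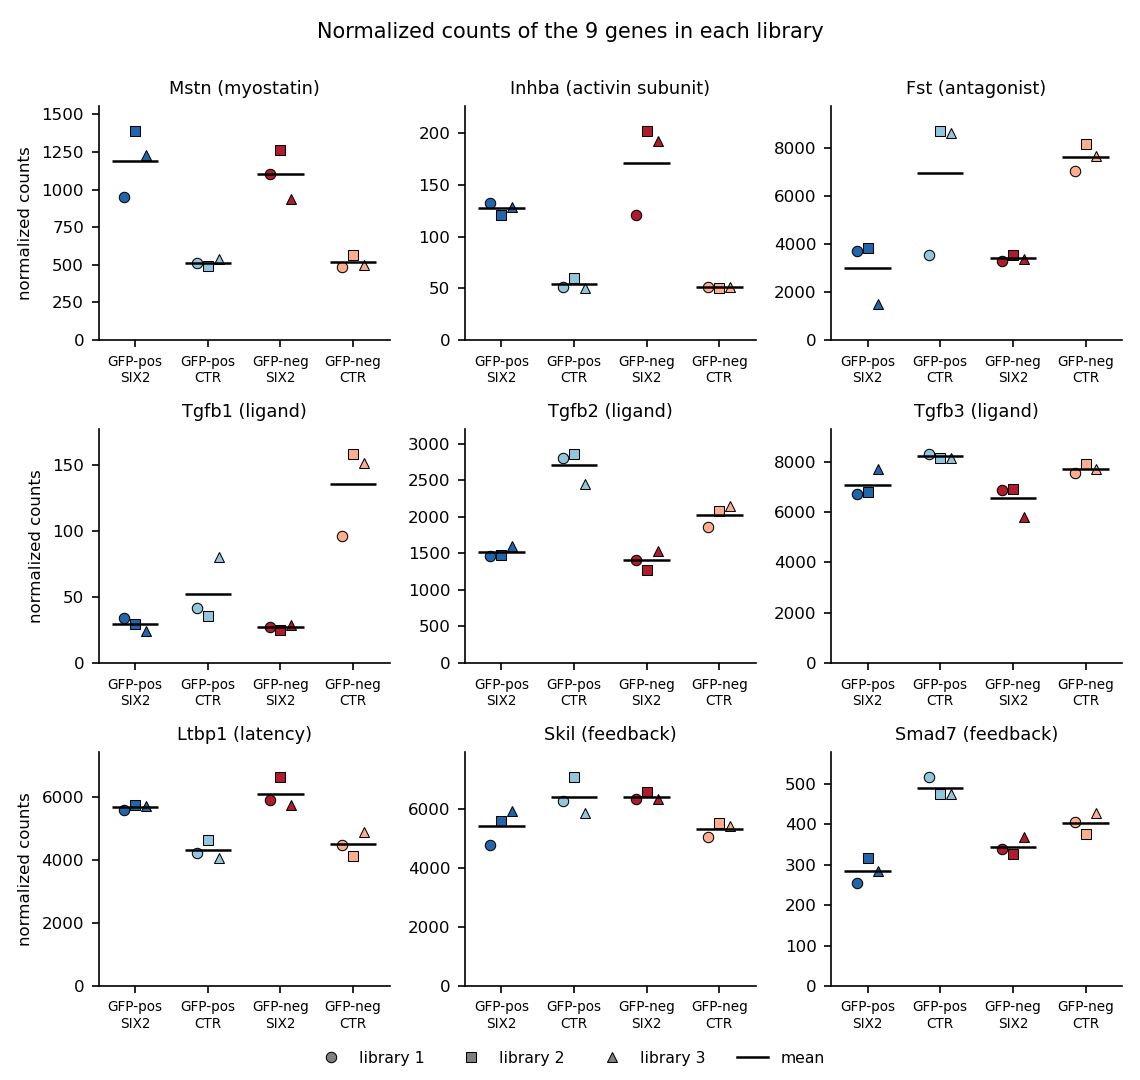
Normalized counts (y axis, linear, from 0) of each of the 9 genes in each of the 12 libraries, by group (x axis), with a line at the group mean. Mstn and Inhba sat higher in every SIX2-labelled library than in any control-labelled one, and Tgfb1 was highest in the GFP-negative control-labelled libraries, at 96.4 to 158.

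Myostatin, encoded by Mstn, is the muscle-made ligand that limits muscle mass. Mstn had 949, 1389 and 1229 normalized counts in the GFP-positive SIX2-labelled libraries, against 513, 489 and 539 in the control-labelled ones. The GFP-negative libraries had 1105, 1261 and 940 under the SIX2 label, against 488, 563 and 500 under the control label. All 6 SIX2-labelled libraries lay above all 6 control-labelled ones. The log2 change was 1.19 ± 0.14 (SE, adjusted p = 4.92e-05, limma) in GFP-positive and 1.08 ± 0.14 (adjusted p = 9.21e-05, limma) in GFP-negative cells, and every one of 25 alternative settings kept both calls.

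Inhba encodes the subunit that forms activin A as a homodimer. It had 132, 121 and 129 normalized counts in the GFP-positive SIX2-labelled libraries, against 51.3, 60.3 and 50.6 in the control-labelled ones. In GFP-negative cells it had 121, 202 and 192 under the SIX2 label, against 51.4, 49.9 and 51.6 under the control label. The 6 control-labelled libraries kept within 49.9 to 60.3, and the lowest SIX2-labelled library had 121. The change came to 1.22 ± 0.21 on the log2 scale (adjusted p = 0.00116, limma) in GFP-positive and 1.70 ± 0.21 (adjusted p = 8.90e-05, limma) in GFP-negative cells, and all 25 alternative settings kept both calls.

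Fst encodes follistatin, the secreted antagonist of activin and myostatin. It had 3717, 3833 and 1490 normalized counts in the GFP-positive SIX2-labelled libraries, against 3551, 8716 and 8630 in the control-labelled ones. GFP-negative cells had 3307, 3525 and 3379 under the SIX2 label, against 7062, 8182 and 7688 under the control label. The GFP-negative groups were tight and far apart, while 2 GFP-positive libraries stood off from their groups: control-labelled library 1, which lay below 2 of the SIX2-labelled libraries, and SIX2-labelled library 3. The log2 change was -1.22 ± 0.34 (adjusted p = 0.0200, limma) in GFP-positive and -1.16 ± 0.34 (adjusted p = 0.0216, limma) in GFP-negative cells. In GFP-positive cells it was -0.77 (adjusted p = 0.0616) without SIX2-labelled library 3, -1.65 (adjusted p = 0.00194) without control-labelled library 1, -1.0 (adjusted p = 0.0839) without control-labelled library 2 and -1.01 (adjusted p = 0.0754) without control-labelled library 3. The call was also lost when only the compared libraries were fitted (-1.22, adjusted p = 0.0846, limma). Without both libraries that stood off, a setting chosen after the data were seen, it was -1.20 (adjusted p = 7.38e-06) in GFP-positive and -1.16 (adjusted p = 6.58e-07) in GFP-negative cells. Without any 1 of the GFP-negative SIX2-labelled libraries, or without GFP-negative control-labelled library 2 or 3, the GFP-negative call was lost as well, at adjusted p values of 0.0527 to 0.0658 (all limma) and with a log2 change of -1.19 to -1.11. The fit shares its estimate of a gene's spread over all 4 groups. The SE of 0.34 in GFP-negative cells therefore also carries the wider spread of the GFP-positive libraries.

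Follistatin transcripts were set against those of Mstn and Inhba per kilobase of the longest transcript. Other ligand genes, among them Gdf11 and the activin subunit gene Inhbb, were left out. Gdf11 had 770 to 931 normalized counts (SIX2 label) against 819 to 893 (control label) in GFP-positive cells. In GFP-negative cells it had 727 to 838 (SIX2 label) against 572 to 690 (control label). Inhbb had 56.5 to 134 against 25.2 to 29.9 in GFP-positive and 90.7 to 130 against 127 to 186 in GFP-negative cells. The ratio of Fst to Mstn plus Inhba was 3.43, 2.46 and 1.07 in the GFP-positive SIX2-labelled libraries, against 6.16, 15.7 and 14.3 in the control-labelled ones. In GFP-negative cells it was 2.65, 2.42 and 3.06 under the SIX2 label, against 12.8, 13.0 and 13.6 under the control label. All 6 SIX2-labelled libraries lay below all 6 control-labelled ones. The ratio restates the changes of Fst, Mstn and Inhba given above and is not a further result. It is of transcripts, and says nothing of the secreted proteins.

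**Figure D2:**
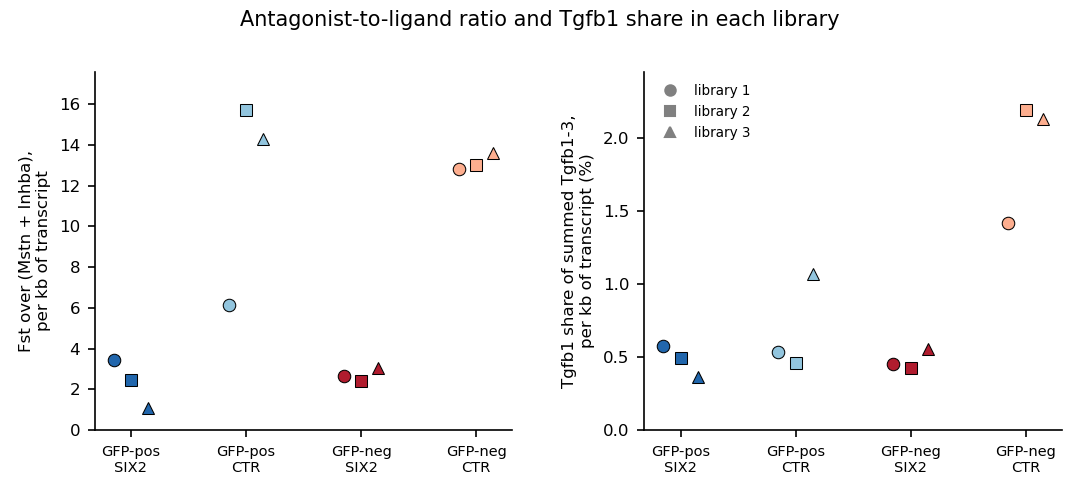
Left, the ratio of Fst to the sum of Mstn and Inhba, each per kilobase of transcript (y axis), in each library by group (x axis). Right, the share of Tgfb1 in the summed Tgfb1, Tgfb2 and Tgfb3 per kilobase (y axis, %). The ratio was 1.07 to 3.43 in the SIX2-labelled libraries and 6.16 to 15.7 in the control-labelled ones, and the Tgfb1 share was 1.42% to 2.19% in the GFP-negative control-labelled libraries and at most 1.07% in the others.

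Tgfb1 encodes the most widely studied TGF-beta ligand and was the scarcest of the 3. It had 33.9, 29.2 and 24.4 normalized counts in the GFP-positive SIX2-labelled libraries, against 41.3, 35.4 and 80.1 in the control-labelled ones. In GFP-negative cells it had 27.1, 25.0 and 28.9 under the SIX2 label, against 96.4, 158 and 151 under the control label. All 6 SIX2-labelled libraries lay within 24.4 to 33.9, below every control-labelled library. The gap in GFP-positive cells was narrow, from 33.9 in SIX2-labelled library 1 to 35.4 in control-labelled library 2. There 1 read stood for 1.79 and 0.553 normalized counts, so these levels rest on few reads. The fall in GFP-negative cells was -2.25 ± 0.32 on the log2 scale (adjusted p = 2.22e-04, limma) and kept its call in all 25 alternative settings. In GFP-positive cells the change of -0.74 ± 0.32 (95% interval -1.43 to -0.05) did not pass the test (adjusted p = 0.118, limma). It was -0.39 (adjusted p = 0.420) without control-labelled library 3 and -0.97 (adjusted p = 0.0682) without control-labelled library 2.

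Tgfb2 had 1468, 1475 and 1599 normalized counts in the GFP-positive SIX2-labelled libraries, against 2808, 2860 and 2453 in the control-labelled ones. GFP-negative cells had 1416, 1277 and 1533 under the SIX2 label, against 1861, 2087 and 2146 under the control label. No SIX2-labelled library reached the lowest control-labelled one. Its log2 change was -0.84 ± 0.09 (adjusted p = 2.78e-05, limma) in GFP-positive and -0.53 ± 0.09 (adjusted p = 7.04e-04, limma) in GFP-negative cells, and both calls held in all 25 alternative settings.

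Tgfb3 was the most abundant of the 9 genes per kilobase and moved little. It had 6708, 6785 and 7703 normalized counts in the GFP-positive SIX2-labelled libraries, against 8299, 8163 and 8159 in the control-labelled ones, and 6873, 6929 and 5812 (SIX2 label) against 7544, 7895 and 7706 (control label) in GFP-negative cells. The groups did not overlap in either population. The change of -0.22 ± 0.07 (adjusted p = 0.0448, limma) in GFP-positive cells was lost in 13 of 25 alternative settings. Among these were the omission of GFP-positive SIX2-labelled library 1 or 2 or of any 1 control-labelled library of either population, at adjusted p values of 0.0562 to 0.137 (limma). In GFP-negative cells the change of -0.24 ± 0.07 (adjusted p = 0.0244, limma) was lost without SIX2-labelled library 3 (-0.16, adjusted p = 0.10) and without control-labelled library 2 (-0.23, adjusted p = 0.0824) or 3 (-0.24, adjusted p = 0.0594), and with quantile normalization (-0.18, adjusted p = 0.0872). Ttll5, a gene on the other strand that overlaps Tgfb3, had 613 to 775 normalized counts, and the protocol does not mark strand, so reads of the shared stretch cannot be told apart.

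Ltbp1 encodes latent TGF-beta binding protein 1, which tethers latent TGF-beta to the matrix. It had 5581, 5766 and 5718 normalized counts in the GFP-positive SIX2-labelled libraries, against 4240, 4645 and 4077 in the control-labelled ones, and 5922, 6641 and 5764 (SIX2 label) against 4490, 4136 and 4887 (control label) in GFP-negative cells. Every SIX2-labelled library lay above every control-labelled one. It rose by 0.40 ± 0.08 on the log2 scale (adjusted p = 0.00202, limma) in GFP-positive and by 0.44 ± 0.08 (adjusted p = 8.22e-04, limma) in GFP-negative cells, in all 25 alternative settings.

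Smad7 encodes the inhibitory SMAD that competes at the type I receptor and recruits ubiquitin ligases to it. It had 254, 318 and 285 normalized counts in the GFP-positive SIX2-labelled libraries, against 517, 475 and 476 in the control-labelled ones. In GFP-negative cells it had 338, 326 and 368 under the SIX2 label, against 407, 375 and 428 under the control label. Neither pair of groups overlapped, but the gap was narrow in GFP-negative cells. The fall of -0.78 ± 0.11 on the log2 scale (adjusted p = 3.29e-04, limma) in GFP-positive cells kept its call in all 25 alternative settings, and the GFP-negative change of -0.23 ± 0.11 (95% interval -0.47 to 0.02) did not pass (adjusted p = 0.162, limma).

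Skil encodes SnoN, a corepressor that binds SMAD complexes. Its means differed in opposite directions in the populations, a difference that did not pass the interaction test (adjusted p = 0.0995, limma). It had 4788, 5592 and 5943 normalized counts in the GFP-positive SIX2-labelled libraries, against 6279, 7099 and 5896 in the control-labelled ones, and 6343, 6596 and 6346 (SIX2 label) against 5047, 5544 and 5444 (control label) in GFP-negative cells. The GFP-positive groups overlapped at 1 library of each, and the GFP-negative groups did not overlap. The GFP-positive change of -0.24 ± 0.08 missed the threshold (adjusted p = 0.0538, limma) but passed it in 9 of 25 alternative settings, among them those without SIX2-labelled library 3 (-0.31, adjusted p = 0.0237) or control-labelled library 3 (-0.30, adjusted p = 0.0329). It was weaker without SIX2-labelled library 1 (-0.15, adjusted p = 0.207) or control-labelled library 2 (-0.17, adjusted p = 0.211). The GFP-negative rise of 0.27 ± 0.08 (adjusted p = 0.0306, limma) was lost without any 1 of the 6 GFP-negative libraries, at adjusted p values of 0.0509 to 0.111 (limma). It was also lost when the trend of each library with gene GC content was removed, which left 0.12 (adjusted p = 0.263, limma). GC-rich genes sat apart by plasmid label in GFP-negative cells, with median deviations of -0.133 to -0.056 (log2) in SIX2-labelled and 0.063 to 0.132 in control-labelled libraries, and the part of this in the other results was measured by the same removal, which also ended the GFP-negative call of Tgfb3 (-0.19, adjusted p = 0.0504, limma) and no other call of the 9 genes between plasmid labels.

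**Figure D3:**
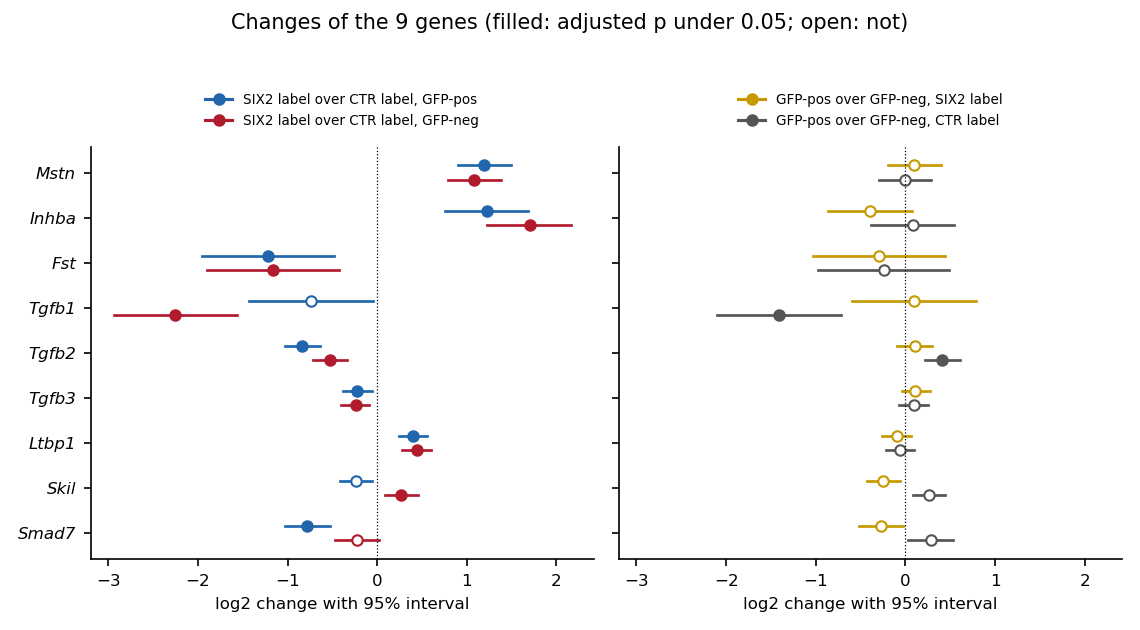
Log2 changes of the 9 genes with 95% intervals (x axis), SIX2 over control label on the left and GFP-positive over GFP-negative on the right; filled points passed an adjusted p of 0.05. Mstn and Inhba lie right of 0 and Fst, Tgfb1, Tgfb2 and Tgfb3 left of it in both populations on the left, and on the right 2 points, both under the control label, are filled.

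The difference between populations in the plasmid-label change was tested as an interaction, GFP-positive minus GFP-negative. No gene in the table passed an adjusted p of 0.05 (0.0%), and 2437 of 14580 (16.7%) had an unadjusted p under 0.05; edgeR's count was 0 and DESeq2's 558. Without GFP-positive control-labelled library 3 limma passed 171 genes, and without GFP-positive SIX2-labelled library 3 it passed 56. Of the 9 genes, 4 had an unadjusted p under 0.05 in limma: Tgfb1 at 1.51 ± 0.46 on the log2 scale (adjusted p = 0.143), Smad7 at -0.55 ± 0.16 (adjusted p = 0.133), Skil at -0.51 ± 0.12 (adjusted p = 0.0995) and Tgfb2 at -0.31 ± 0.13 (adjusted p = 0.246). DESeq2 passed Skil (adjusted p = 0.00761) and Smad7 (adjusted p = 0.0450) and gave no adjusted p for Tgfb1. Others passed were, by limma with library weights, Skil (adjusted p = 0.0345) and Tgfb1 (adjusted p = 0.0463) and, by limma without GFP-positive control-labelled library 3, Skil (adjusted p = 0.0474). For the other 5 the interval held 0: Mstn at 0.11 (95% interval -0.31 to 0.53), Inhba at -0.47 (-1.13 to 0.18), Fst at -0.05 (-1.09 to 0.99), Tgfb3 at 0.02 (-0.20 to 0.25) and Ltbp1 at -0.04 (-0.27 to 0.19).

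Between sorted populations, 2 of the 9 genes passed the test, both TGF-beta ligand genes and both under the control label: Tgfb1 was lower and Tgfb2 higher in GFP-positive cells. Tgfb1 averaged 52.3 ± 24.3 normalized counts in GFP-positive and 135 ± 33.7 in GFP-negative control-labelled libraries, a log2 change of -1.41 ± 0.32 (adjusted p = 0.0318, limma). Tgfb2 averaged 2707 ± 221 in GFP-positive and 2031 ± 150 in GFP-negative cells (SD, n = 3 each), a log2 change of 0.41 ± 0.09 (adjusted p = 0.0264, limma). They were 2 of the 9 genes, 1 higher and 1 lower, against 3.48% of all tested genes, 0.919% higher and 2.56% lower. That share stands for 507 genes, a number that was 68 without GFP-negative control-labelled library 1, 85 without GFP-positive control-labelled library 1, and 174 to 196 without GFP-negative control-labelled library 2 or 3 or GFP-positive control-labelled library 2. It was 314 without GFP-negative SIX2-labelled library 2 and 820 without GFP-positive control-labelled library 3. Without any 1 of the GFP-negative control-labelled libraries, or without GFP-positive control-labelled library 1 or 2, neither passed, with adjusted p values of 0.0698 to 0.130 for Tgfb1 and 0.0524 to 0.135 for Tgfb2 (limma). Skil at 0.26 ± 0.08 (adjusted p = 0.102, limma) and Smad7 at 0.28 ± 0.11 (adjusted p = 0.194, limma) did not pass, although Skil passed with library weights (0.27, adjusted p = 0.0219, limma) and with DESeq2 (0.27, adjusted p = 0.0462). Of the 9 genes 5 did not overlap between the populations (Tgfb1, Tgfb2, Tgfb3, Skil and Smad7), against 27.2% of tested genes. Tgfb3, Ltbp1, Inhba, Fst and Mstn had intervals that held 0, the widest from -0.98 to 0.49 for Fst.

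Under the SIX2 label none of the 9 genes passed between GFP-positive and GFP-negative cells, against 0.192% of tested genes in limma (0.0137% higher and 0.178% lower), and edgeR and DESeq2 likewise passed none of the 9. Skil averaged 5441 ± 592 normalized counts in GFP-positive and 6428 ± 145 in GFP-negative SIX2-labelled libraries (log2 change -0.25 ± 0.08, adjusted p = 0.241, limma). Smad7 averaged 285 ± 32.0 in GFP-positive and 344 ± 21.6 in GFP-negative ones (log2 change -0.27 ± 0.11, adjusted p = 0.330, limma). These were the 2 at an unadjusted p under 0.05 and the 2 whose groups did not overlap, against 17.2% of tested genes, and the means of both were higher in GFP-positive cells under the control label. Tgfb1, which differed under the control label, averaged 29.2 ± 4.76 in GFP-positive and 27.0 ± 1.92 in GFP-negative cells under the SIX2 label.

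Levels between genes were compared per kilobase of the longest transcript, as means over the 12 libraries. Tgfb3 stood at 2182, Fst at 1800, Skil at 880, Ltbp1 at 773, Tgfb2 at 374, Mstn at 307, Smad7 at 89.0, Tgfb1 at 23.7 and Inhba at 15.8 normalized counts per kilobase. Neighbours in this order overlapped in their ranges over libraries, apart from Ltbp1 (611 to 996) above Tgfb2 (250 to 559) and Mstn (181 to 514) above Smad7 (59.3 to 121). Of the summed TGF-beta ligand transcripts, Tgfb3 made up 80.8% to 88.8%, Tgfb2 10.8% to 18.7% and Tgfb1 0.365% to 2.19% in single libraries. The order of the 2 scarcest genes differed by plasmid label: Inhba averaged 19.9 and Tgfb1 11.3 normalized counts per kilobase in GFP-positive SIX2-labelled libraries, and 8.46 and 20.3 in the GFP-positive control-labelled ones. In GFP-negative cells Inhba averaged 26.9 and Tgfb1 10.5 under the SIX2 label, and 7.98 and 52.5 under the control label.

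Fst and Tgfb1 varied most within groups. The coefficient of variation of Fst was 43.8% and 42.5% in the GFP-positive SIX2-labelled and control-labelled libraries, against 3.27% and 7.34% in the GFP-negative ones. For Tgfb1 it reached 46.5% in the GFP-positive control-labelled libraries, where library 3 had 80.1 normalized counts. Tgfb3 in the same group had 0.969%. The GFP-positive libraries as a whole differed more from the rest of their group, with a root mean square difference in log2 values of 0.279 to 0.400, against 0.201 to 0.294 in the GFP-negative libraries.

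The rest of the pathway was read from 5 lists of receptors, SMADs and corepressors, latency and activation genes, other ligands and antagonists, and target genes. Of 9 tested receptor genes, 2 rose and 1 fell in GFP-positive cells, and 1 rose and none fell in GFP-negative cells, against 12.1% higher and 11.2% lower, and 13.6% higher and 14.3% lower, of all tested genes in these comparisons. These counts are near those shares. Eng, encoding the coreceptor endoglin, was the gene that rose in both, with 295 ± 76.4 (SIX2 label) against 175 ± 35.9 (control label) normalized counts in GFP-positive and 296 ± 28.0 (SIX2 label) against 143 ± 14.5 (control label) in GFP-negative cells (SD, n = 3 each; log2 changes 0.74 and 1.05, adjusted p = 0.0155 and 0.00149, limma). In GFP-positive cells this was 0.55 (adjusted p = 0.0637) without SIX2-labelled library 3, 0.61 (adjusted p = 0.0676) without control-labelled library 1 and 0.42 (adjusted p = 0.184) without both. The GFP-positive call of Eng was also lost when only the compared libraries were fitted (adjusted p = 0.0594, limma). Bambi, a decoy receptor, rose in GFP-positive cells (0.77 ± 0.23, adjusted p = 0.0252, limma), and Acvr2b, a receptor of myostatin and activin, fell in them (-1.38 ± 0.35, adjusted p = 0.0122, limma). Acvr2b was scarce there, with 23.2, 15.6 and 11.4 normalized counts (SIX2 label) against 42.1, 33.2 and 58.2 (control label). Bambi lost this call without any 1 GFP-positive SIX2-labelled library or control-labelled library 2 (adjusted p 0.0540 to 0.0978), and Acvr2b without control-labelled library 3 (adjusted p = 0.0565). Bambi also lost it with no filter on low values (adjusted p = 0.0612, limma) and with only the compared libraries (adjusted p = 0.0741, limma). The kinase receptor genes Tgfbr1, Tgfbr2, Acvr1b and Acvr2a did not pass in either population (log2 changes of -0.28 to 0.01).

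Of 10 tested SMAD and corepressor genes, 1 rose and 1 fell in GFP-positive cells, and 2 rose and none fell in GFP-negative cells, likewise near the shares of all tested genes (12.1% and 11.2%, and 13.6% and 14.3%). Tgif1, a corepressor of SMAD complexes, rose in both, at 1342 ± 52.0 (SIX2 label) against 1081 ± 55.5 (control label) normalized counts in GFP-positive and 1435 ± 56.2 (SIX2 label) against 1036 ± 66.7 (control label) in GFP-negative cells (adjusted p = 0.0101 and 5.61e-04, limma). Pmepa1, a TGF-beta target that curbs SMAD signalling, fell in GFP-positive cells (-0.40 ± 0.09, adjusted p = 0.00701, limma). The ubiquitin ligase gene Smurf1 rose in GFP-negative cells (0.54 ± 0.17, adjusted p = 0.0328, limma), a call lost without SIX2-labelled library 1 or 3 or control-labelled library 1 or 2 (adjusted p 0.0714 to 0.142). The signal-carrying Smad2, Smad3 and Smad4 passed in neither population.

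Of 17 tested latency and activation genes, 4 rose and 2 fell in GFP-positive cells, and 1 rose and 3 fell in GFP-negative cells. Of all tested genes 12.1% rose and 11.2% fell in GFP-positive cells, and 13.6% rose and 14.3% fell in GFP-negative cells. The list's median log2 change was 0.44 in GFP-positive and 0.14 in GFP-negative cells, beside -0.01 and 0.00 over all tested genes. Leaving out 1 library, 2 to 4 rose and 0 to 2 fell in GFP-positive cells, and 1 to 2 rose and 1 to 4 fell in GFP-negative cells. Thbs1, encoding thrombospondin 1, an activator of latent TGF-beta, had 10671 ± 228 (SIX2 label) against 4300 ± 213 (control label) normalized counts in GFP-positive and 11140 ± 416 (SIX2 label) against 5456 ± 799 (control label) in GFP-negative cells (log2 changes 1.31 and 1.04, adjusted p = 9.17e-07 and 4.67e-06, limma). Itgb6, encoding the beta chain of a TGF-beta-activating integrin, fell by 0.30 and 0.32 on the log2 scale (adjusted p = 0.0149 and 0.00843, limma), and Itgb1 by 0.42 and 0.43 (adjusted p = 0.0275 and 0.0231, limma). In GFP-positive cells Itgb6 lost its call without SIX2-labelled library 1 (adjusted p = 0.0595) or control-labelled library 2 (adjusted p = 0.0509), and Itgb1 without SIX2-labelled library 3 (-0.27, adjusted p = 0.0973) or control-labelled library 2 (adjusted p = 0.104) or 3 (adjusted p = 0.0956). In GFP-negative cells Itgb1 lost it without SIX2-labelled library 1 (adjusted p = 0.0768) or control-labelled library 3 (adjusted p = 0.0851). Quantile normalization ended the Itgb1 calls in both populations (-0.24, adjusted p = 0.225, in GFP-positive and -0.25, adjusted p = 0.177, in GFP-negative cells) and the GFP-positive call of Itgb6 (-0.22, adjusted p = 0.0598). Mmp2, a matrix metalloproteinase gene, rose in GFP-positive cells (0.63 ± 0.16, adjusted p = 0.0131, limma), but not without SIX2-labelled library 1 (adjusted p = 0.0538) or control-labelled library 1 (adjusted p = 0.0586).

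Of 8 tested genes of other ligands and antagonists, 3 rose and 1 fell in each population, against 12.1% and 11.2% of all tested genes in GFP-positive and 13.6% and 14.3% in GFP-negative cells. Inha, encoding the inhibin alpha subunit that pairs with activin subunits to form the antagonist inhibin, had 3574 ± 465 (SIX2 label) against 6404 ± 231 (control label) normalized counts in GFP-positive and 3032 ± 282 (SIX2 label) against 5918 ± 95.5 (control label) in GFP-negative cells (log2 changes -0.85 and -0.97, adjusted p = 2.26e-05 and 8.74e-06, limma). Fstl1, a follistatin-like secreted protein gene, had 2408 ± 59.6 (SIX2 label) against 1336 ± 186 (control label) in GFP-positive and 2961 ± 163 (SIX2 label) against 1434 ± 195 (control label) in GFP-negative cells (log2 changes 0.86 and 1.05). Bgn, encoding the matrix proteoglycan biglycan, rose by 1.23 and 0.64 on the log2 scale (adjusted p = 1.69e-05 and 0.00164, limma). All of these calls held in 25 alternative settings. Inhbb, encoding the other activin beta subunit, had 27.1 ± 2.46 normalized counts in GFP-positive and 148 ± 32.9 in GFP-negative control-labelled libraries (log2 change -2.39 ± 0.29, adjusted p = 0.00133, limma). Under the control label Gdf11 was higher in GFP-positive cells (0.47 ± 0.10, adjusted p = 0.0277, limma) and Mmp14 lower (-1.70 ± 0.42, adjusted p = 0.0446, limma). Mmp14 lost its call in 13 of 25 alternative settings. Gdf11 lost it without GFP-positive control-labelled library 1 (adjusted p = 0.0799) or 2 (adjusted p = 0.0906) and without GFP-negative control-labelled library 1 (adjusted p = 0.129) or 2 (adjusted p = 0.10). It was also lost with replicate numbers as a block (adjusted p = 0.0554, limma). The same held without GFP-positive SIX2-labelled library 3 and control-labelled library 1 together (adjusted p = 0.0632, limma).

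Of 21 tested target genes of TGF-beta or its relatives, 10 rose and 3 fell in GFP-positive cells, and 11 rose and 1 fell in GFP-negative cells, against 12.1% and 11.2%, and 13.6% and 14.3%, of all tested genes. The list's median log2 change was 0.23 and 0.40, beside -0.01 and 0.00 over all tested genes. Ccn2, encoding connective tissue growth factor, had 1236 ± 87.2 (SIX2 label) against 533 ± 36.4 (control label) normalized counts in GFP-positive and 1259 ± 32.5 (SIX2 label) against 481 ± 98.5 (control label) in GFP-negative cells (log2 changes 1.21 and 1.41, adjusted p = 1.92e-05 and 6.95e-06, limma). Tagln, encoding the actin-binding transgelin, had 5579 ± 388 (SIX2 label) against 2609 ± 125 (control label) in GFP-positive and 5119 ± 87.7 (SIX2 label) against 2819 ± 210 (control label) in GFP-negative cells (log2 changes 1.09 and 0.86). Id1, a target of bone morphogenetic proteins that encodes an inhibitor of MyoD-family factors, fell in GFP-positive cells (-0.35 ± 0.08, adjusted p = 0.00615, limma), as did Pmepa1. Without GFP-positive SIX2-labelled library 3 and control-labelled library 1 together, Id1 was at -0.25 (adjusted p = 0.0535, limma). Acta2 fell by 0.16 in GFP-negative cells (adjusted p = 0.0494, limma), a call lost in 17 of 25 alternative settings and turned to 0.02 by quantile normalization. Cdkn1a was higher in GFP-positive than in GFP-negative control-labelled libraries (0.36 ± 0.08, adjusted p = 0.0231, limma), which did not hold without library 1 or 2 of either group (adjusted p 0.0585 to 0.115). These genes answer to other pathways too, and the list was not tested as a set.

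**Figure D4:**
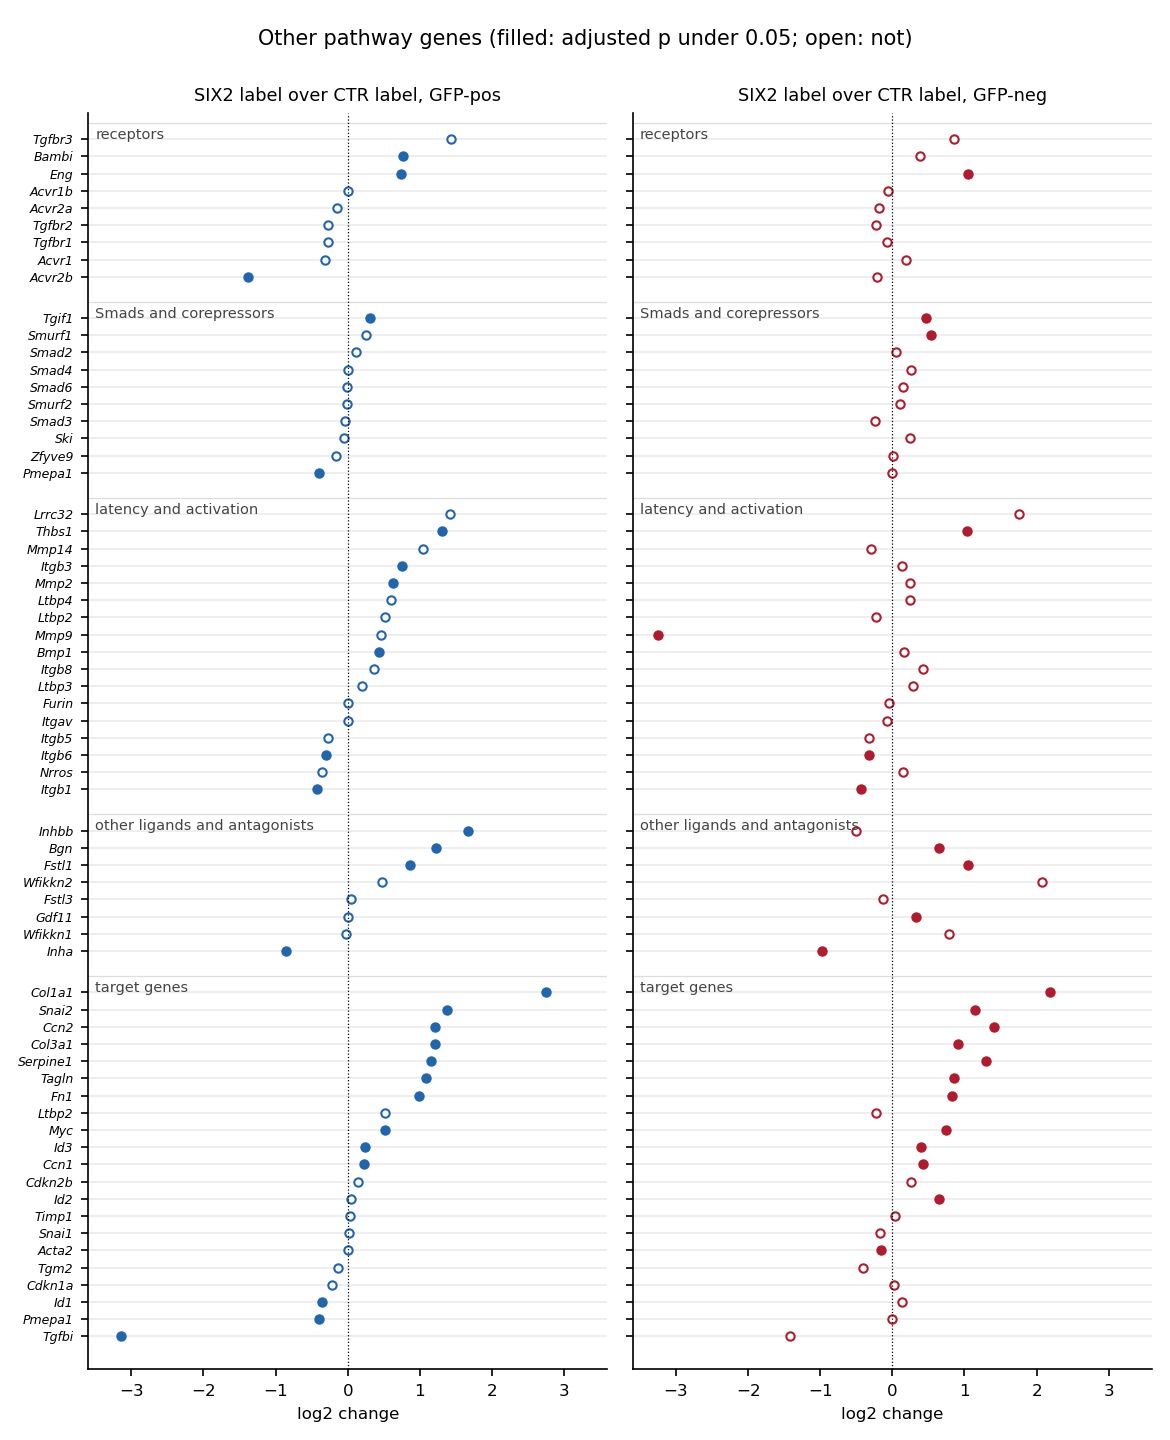
Log2 change, SIX2 over control label (x axis), of the tested genes of each pathway list (rows) in GFP-positive (left) and GFP-negative (right) cells; filled points passed an adjusted p of 0.05. Ccn2 and Tagln among the target genes, Thbs1 and Fstl1 lie right of 0 and Inha left of it in both panels.

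Markers of cell state and of other cell types moved with the plasmid label beside these genes. Of 8 differentiating-myocyte markers, all 8 fell in GFP-positive and 7 in GFP-negative SIX2-labelled cells, against 11.2% and 14.3% of all tested genes. Their summed level was 964504 to 1096570 (SIX2 label) against 1298798 to 1345556 (control label) normalized counts in GFP-positive and 875838 to 940879 (SIX2 label) against 1177986 to 1260342 (control label) in GFP-negative libraries. Of 8 progenitor markers, 3 were higher and 1 lower in GFP-positive cells and 3 higher and 3 lower in GFP-negative cells, against 12.1% and 11.2%, and 13.6% and 14.3%, of all tested genes, with summed levels of 184400 to 205549 (SIX2 label) against 214431 to 234733 (control label) in GFP-positive and of 144390 to 168090 (SIX2 label) against 212005 to 241239 (control label) in GFP-negative libraries. Des was the largest part of these sums and fell in both populations (log2 changes -0.29 in GFP-positive and -0.67 in GFP-negative cells). Pax7 (0.79 and 0.58), Myf5 (0.77 and 1.32) and Vcam1 (1.63 and 1.41) rose in both, in the same order. Cdh15 and Itga7 fell in GFP-negative cells only. Of 8 fibro-adipogenic markers 6 had a row and 4 were tested, with 2 higher (Ly6a and Smoc2) and none lower in each population, against the same shares; their summed level was 143 to 158 (SIX2 label) against 50.5 to 114 (control label) in GFP-positive and 306 to 367 (SIX2 label) against 91.9 to 124 (control label) in GFP-negative libraries. Dcn, a defining marker of those cells, was listed at 0 in every library of 3 groups and averaged 0.601 in the GFP-negative SIX2-labelled one. Smoc2 was the largest part of the fibro-adipogenic sum, averaging 76.7 (SIX2 label) against 34.8 (control label) in GFP-positive and 257 against 58.0 in GFP-negative cells. Pdgfra passed in neither population, with means of 8.67 (SIX2 label) against 15.6 (control label) in GFP-positive and 8.11 against 8.62 in GFP-negative cells. Pericyte and smooth-muscle markers (5 of 6 with a row) summed to 2188 to 3292 (SIX2 label) against 3370 to 3753 (control label) in GFP-positive and to 2164 to 2975 (SIX2 label) against 2951 to 3639 (control label) in GFP-negative libraries. The list went both ways: Cspg4 fell in both populations (-0.84, adjusted p = 0.00448, in GFP-positive and -0.78, adjusted p = 0.00593, in GFP-negative cells, limma), while Pdgfrb rose in GFP-positive cells (0.87, adjusted p = 0.00472, limma) and Rgs5 in GFP-negative cells (1.69, adjusted p = 0.0267, limma). Tenocyte markers (3 of 4) summed to 432 to 562 (SIX2 label) against 471 to 704 (control label) in GFP-positive and to 417 to 471 (SIX2 label) against 525 to 593 (control label) in GFP-negative libraries. Scx fell in both populations (-0.60, adjusted p = 0.0168, in GFP-positive and -0.51, adjusted p = 0.0326, in GFP-negative cells, limma), and Mkx rose in GFP-negative cells (1.61, adjusted p = 0.00384, limma). Endothelial markers (4 of 5) summed to at most 27.0 in any library, leukocyte markers (3 of 5) to at most 58.0 and glial markers (3 of 4) to at most 25.7. Within the leukocyte list Csf1r rose in both populations, with means of 21.4 (SIX2 label) against 5.50 (control label) in GFP-positive and 28.0 (SIX2 label) against 4.95 (control label) in GFP-negative libraries (log2 changes 2.07 and 2.44, adjusted p = 0.0413 and 0.0166, limma). The part of any of these in the changes above was not tested, and in bulk RNA fewer cells of a type and less RNA per cell cannot be told apart.

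The genes nearest to each of the 9 in profile were found by the root mean square difference of centred log2 values over the 12 libraries, among genes with a mean of at least 50. Mstn was nearest to Ndrg2 (0.123) and Gbp6 (0.142), and Inhba to Peg12 (0.189) and Glipr2 (0.208). Fst was nearest to Acsl3 (0.210) and Rdh10 (0.212), Tgfb1 to Ephb3 (0.326) and Gpc1 (0.340), and Tgfb2 to Cryab (0.085) and Cdc42ep3 (0.089). Tgfb3 lay nearest to Trim35 (0.053), Ltbp1 to Msn (0.063) and Tgif1 (0.068), Skil to Luc7l (0.074) and Ogt (0.074), and Smad7 to Wdr19 (0.088) and Selenos (0.103). The spread of each gene about its own mean sets how near a neighbour can be, from 0.15 for Tgfb3 to 0.95 for Tgfb1, so the distances are not comparable between genes.

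On GRCm38 the 9 genes lie as follows: Tgfb1 at chr7:25687002-25705077, Tgfb2 at chr1:186622792-186705989, Tgfb3 at chr12:86056745-86079041, Ltbp1 at chr17:75005568-75392512, Skil at chr3:31095058-31122577, Smad7 at chr18:75367529-75395935, Inhba at chr13:16011851-16031621, Fst at chr13:114452290-114458951 and Mstn at chr1:53061640-53068079.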

How the data were processed

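RNA of sorted, plasmid-transfected mouse muscle stem cells was sequenced in 12 libraries after SMART-Seq2 amplification and Tn5 fragmentation, per the labels' protocols. The submitters' processing notes name FastQC 0.12.1, MultiQC 1.19, STAR 2.7.11a, RSEM 1.3.3, DESeq2 1.42.0 and GRCm38. The deposited values are normalized counts, a signal that the authors scaled by library, and not raw counts. In every library 100.0% of values were whole multiples of what 1 read is worth (0.553 to 2.14 normalized counts, tolerance 1e-04), so reads were recovered for the count tests. Depth was 12.4 to 47.3 (reads in units of 1e6), and low genes carry the larger counting error.

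Values were tested as log2(value + 1) with limma-trend (R 4.3.3, limma 3.58.1) over all 4 groups, with Benjamini-Hochberg adjustment over 14580 genes with at least 10 normalized counts in 3 libraries; log2 changes on this scale understate those of low genes, and the threshold was an adjusted p of 0.05. Comparisons were SIX2 over control label in each population, GFP-positive over GFP-negative under each plasmid, and the interaction. The comparisons share control or SIX2-labelled libraries. Alternatives were count tests on the recovered reads with edgeR 4.0.16 (its quasi-likelihood test) or DESeq2 1.42.0, other pseudocounts, filters, scalings, library weights, GC-trend removal, a replicate block, and leaving out each library. The count tests passed 3299 (edgeR) and 3696 (DESeq2) genes in GFP-positive cells, beside 3394 in limma. Same-numbered libraries did not deviate together (r of -0.203 to 0.045), so the block is an alternative only. Of the fits, only limma-trend was run on simulated data, for the plasmid-label comparison in GFP-negative cells. Replicates of a group differed by more than sampling noise (chi-square per degree of freedom 7.71 to 49.4).

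The 9 genes and all lists were chosen with earlier results of these data known. The rule for named genes took all 9, Six2 and Pax3 as label checks, and from each pathway list up to 2 genes per direction past the threshold with the smallest p in each plasmid-label comparison and up to 1 in each GFP-label comparison. It also took the 2 nearest profiles of each of the 9. One of these is not reported here. The kinase receptor and SMAD genes that did not pass, Ttll5 and single markers of cell state and of other cell types were named after their values were seen. Gene positions and lengths are from GENCODE M21 on GRCm38, matched for 99.8% of identifiers. Tables and figures were made with Python 3.11.15, numpy 2.4.6, pandas 2.3.3 and matplotlib 3.10.9.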

Additional observations from a re-analysis of the deposited data

How the results depend on the processing

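No direction of the 9 genes between plasmid labels turned under any of 25 alternative settings. Leaving out 1 library at a time, the number of the 9 genes past the threshold ranged over 5 to 7 in GFP-positive and 5 to 8 in GFP-negative cells between plasmid labels, 0 to 2 between populations under the control label, and 0 to 1 for the interaction. Between populations under the control label, 1 gene passed with no filter on low values, 1 with only the compared libraries, 0 with the replicate block and 0 without both GFP-positive libraries low in Fst (chosen after the data were seen), and 3 with library weights and 3 with DESeq2, against 2. For the interaction, 2 passed with library weights and 2 with DESeq2, against 0; fitting only the compared libraries gives no interaction. With replicate numbers as a block, 7 and 8 genes passed between plasmid labels and 0 in the other comparisons. The labels do not say whether the numbers pair libraries. Of the 9 genes, the lost calls are Tgfb1 (adjusted p = 0.0554, limma) and Tgfb2 (adjusted p = 0.0509, limma) under the control label and Tgfb3 in GFP-positive cells. Skil in GFP-positive cells passed with the block (adjusted p = 0.0442, limma). Over all genes, library weights passed 6142 against 4075 in GFP-negative cells, 1520 against 507 between populations under the control label and 282 against 0 for the interaction; DESeq2 passed 1087, 294 (against 28 under the SIX2 label) and 558. Small differences between populations turned sign: under the control label Ltbp1 with library weights (0.04), Fst without both low libraries (0.18) and Mstn with quantile normalization (0.06), and under the SIX2 label Fst without both low libraries (0.15). So did the interactions of Tgfb3 with library weights (-0.01), GC-trend removal (-0.04) and without both low libraries (-0.03) and of Fst with GC-trend removal (0.02), and the Acta2 change in GFP-negative cells with quantile normalization (0.02). Leaving out 1 library, values that turned sign ranged, under the control label, over -0.12 to 0.00 for Ltbp1, -0.00 to 0.12 for Inhba, -0.46 to 0.18 for Fst and -0.05 to 0.05 for Mstn. Under the SIX2 label they ranged over -0.01 to 0.22 for Tgfb1, -0.53 to 0.15 for Fst and -0.02 to 0.26 for Mstn, and for the interaction over -0.06 to 0.07 for Tgfb3, -0.10 to 0.02 for Ltbp1, -0.48 to 0.39 for Fst and -0.01 to 0.26 for Mstn. The causes were not tested. Depth limits low genes such as Six2, since 1 read stands for up to 2.14 normalized counts.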
